A study of Rattus norvegicus with 12 samples.

Results

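Hmox1, Nqo1, Gclc, Mt1 and Mt2A are 5 genes of the antioxidant and metal-binding defence, and they are described here in 2 established rat kidney lines, NRK-52E epithelial cells and NRK-49F fibroblasts. They were chosen by their Ensembl identifiers, ENSRNOG00000014117, ENSRNOG00000012772, ENSRNOG00000006302, ENSRNOG00000038047 and ENSRNOG00000043098 in that order. All 5 were among the 21698 genes of the deposited counts table. The table lists identifiers without names, so each gene carries the name that came with its identifier in the list, and that pairing could not be checked against the files.

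RNA-seq covered 12 libraries in 4 groups of 3. NRK-52E cells received vehicle or 40 µM cisplatin, a platinum compound that damages DNA and is toxic to kidney tubules. NRK-49F cells were grown for 24 h in medium conditioned by NRK-52E cells, either untreated (untreated medium) or exposed to 40 µM cisplatin (cisplatin medium). Both lines were kept in DMEM with 5% FBS. NRK-49F cells were in conditioned medium in both of their groups, so line and medium cannot be told apart in any comparison between the lines. The treatment protocol gives 6 h of drug, a rinse and 24 h in fresh medium, whereas the design text gives 24 h of treatment, and the labels do not settle which applies to the sequenced NRK-52E cells. Each line is a cultured cell line, and the labels leave unsaid whether libraries of 1 group were separate cultures; the p-values therefore reflect library-to-library spread that may be technical only. Epithelial and fibroblast markers were not checked, because their identifiers are not paired with names. Total counts were 9684887 to 12549675 per library. The limit that a count of 0 allows, 3 counts, equalled 0.239 to 0.31 CPM (counts scaled to a common library size, here by total counts alone). It is a limit for counting error only. Levels below use a further scaling of the libraries, so in their units this limit is somewhat lower in NRK-52E and higher in NRK-49F. In a culture measured in bulk, a change in the number of cells that express a gene and a change in RNA per cell cannot be told apart.

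The first 3 genes are classical targets of NRF2, a transcription factor that KEAP1 holds at a low level until oxidants or electrophiles release it, after which it binds antioxidant response elements. Hmox1 encodes heme oxygenase 1, which breaks heme down to biliverdin, carbon monoxide and iron and is well known as an induced gene of the injured tubule. Nqo1 encodes a quinone reductase, and Gclc the catalytic subunit of the enzyme that makes the first step of glutathione synthesis. Mt1 and Mt2A encode metallothioneins, small cysteine-rich proteins that bind zinc and copper and are switched on by the zinc sensor MTF1 through metal response elements. Both glutathione and metallothioneins can bind platinum.

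The genes did not move as a group. In NRK-52E cisplatin raised Hmox1 and lowered Nqo1 and Gclc, and in NRK-49F cisplatin medium raised Nqo1 and lowered Gclc and Mt2A. With TMM scaling Mt2A was 499-fold more abundant in NRK-49F than in NRK-52E (control groups), and Mt1 was near the detection limit in all 4 groups. Levels below are in CPM with TMM-scaled library sizes from one scaling of all 12 libraries. TMM sets the bulk of genes as the reference. Fold changes are edgeR log2 values, and a gene rose or fell where the edgeR quasi-likelihood test gave a Benjamini-Hochberg adjusted p below 0.05 over all genes tested.

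**Figure D1:**
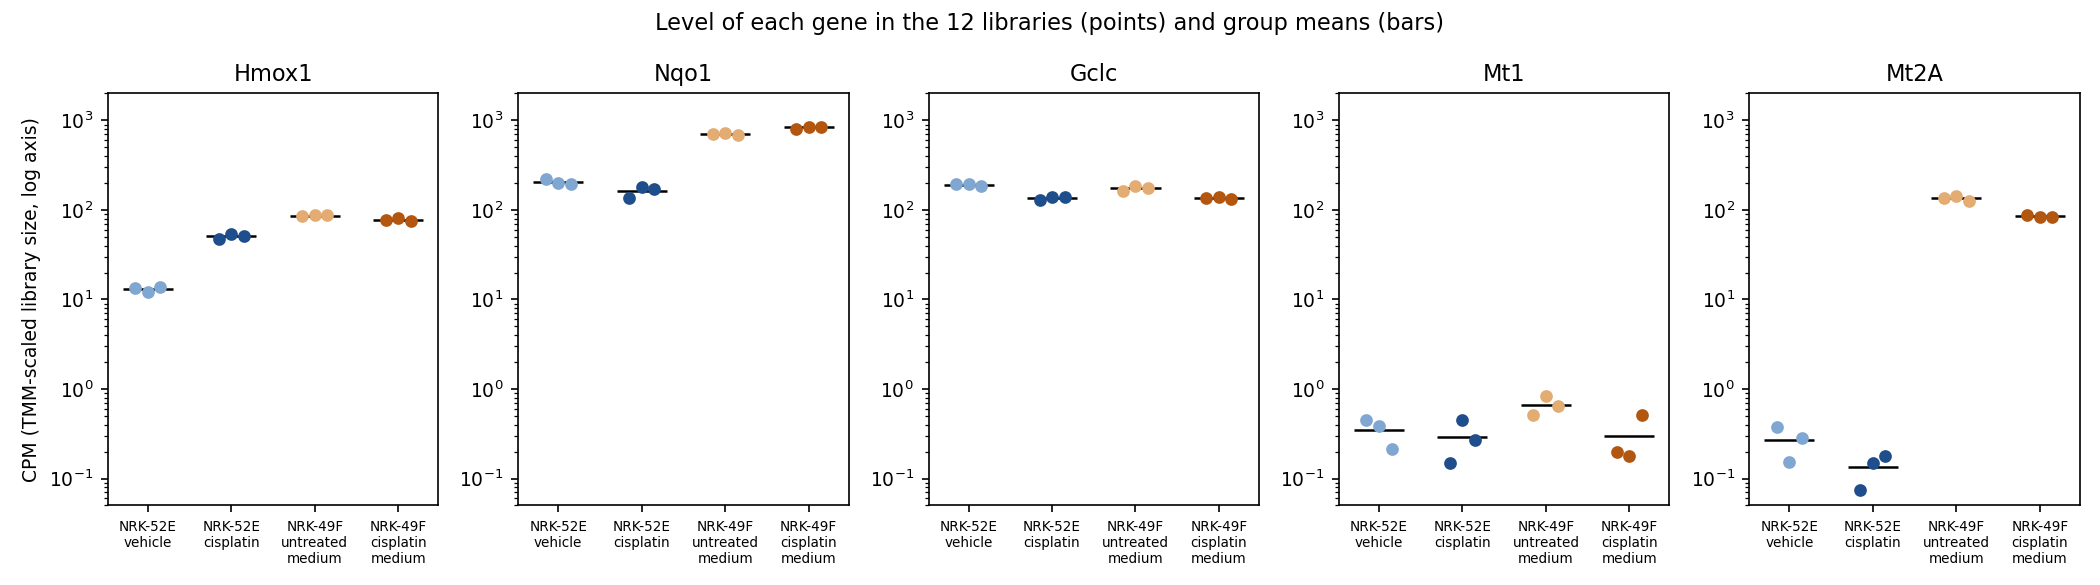
Level of each gene in CPM (TMM-scaled library size, log axis) in the 4 groups, where each point is 1 of 12 libraries and each bar the mean of 3. Hmox1 is lowest in NRK-52E with vehicle, Mt2A is near the detection limit in NRK-52E and at 82.9 to 145 CPM in NRK-49F, and Mt1 is at 0.832 CPM or less in every library.

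Hmox1 rose in NRK-52E with cisplatin and had the largest response of the members tested in either line. Its levels were 13.6, 12.2 and 13.7 CPM with vehicle and 46.8, 53.6 and 51.6 CPM with cisplatin. Every cisplatin library lay above every vehicle library, and the means were 13.2 ± 0.821 and 50.7 ± 3.5 CPM (SD, n = 3 each). The log2 fold change was 1.93, a 3.8-fold rise (standard error, SE, 0.08; edgeR adjusted p = 2.29e-21). Of all genes tested in NRK-52E, 7.56% had a higher log2 fold change than Hmox1.

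In NRK-49F the Hmox1 levels were 85.3, 87.6 and 87.2 CPM in untreated medium and 76.8, 82.1 and 75.0 CPM in cisplatin medium. The groups did not overlap with TMM scaling, and the means were 86.7 ± 1.25 and 78 ± 3.7 CPM (SD, n = 3 each). The log2 fold change of -0.15 passed the test (SE 0.05, edgeR adjusted p = 0.0148), but the call depends on the scaling and on 1 library. With library size as the only scaling Hmox1 was at 69.3 to 70.8 CPM in untreated and 70.1 to 76.3 CPM in cisplatin medium, and its log2 fold change was 0.051 (edgeR adjusted p = 0.404). Without replicate 3 in cisplatin medium the value was -0.12 (edgeR adjusted p = 0.0898). The value was negative with each library left out (-0.19 to -0.12), and its sign turned with library size only, a scaling that moves all genes together.

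The Hmox1 responses of the lines differed. The log2 fold change was higher in NRK-52E than in NRK-49F by 2.09 (SE 0.10, edgeR adjusted p = 5.71e-24 for the contrast in one fit of all 12 libraries). NRK-52E had received the drug itself and NRK-49F a conditioned medium, so line and agent cannot be told apart in this contrast. Across the 4 groups Hmox1 went from NRK-52E with vehicle through NRK-52E with cisplatin to both NRK-49F groups. NRK-49F in untreated medium exceeded NRK-52E with vehicle by 2.72 on the log2 scale (SE 0.07, edgeR adjusted p = 5.25e-34). NRK-49F in cisplatin medium exceeded NRK-52E with cisplatin by 0.62 (SE 0.06, edgeR adjusted p = 2.85e-13), or by 0.31 with library size only. The difference between the lines was thus smaller between the treated groups than between the control groups, which is the same contrast of 4 means as the difference of responses and no separate result.

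Nqo1 went down with cisplatin in NRK-52E and up with cisplatin medium in NRK-49F. In NRK-52E its levels were 222, 202 and 197 CPM with vehicle and 135, 179 and 172 CPM with cisplatin. The groups did not overlap, but replicate 1 with cisplatin lay well below the other 2 cisplatin libraries. Means were 207 ± 13.6 and 162 ± 23.9 CPM (SD, n = 3 each), and the log2 fold change was -0.37 (SE 0.06, edgeR adjusted p = 3.32e-06). It was -0.25 without that library (edgeR adjusted p = 8.75e-06). With DESeq2 the Nqo1 value in NRK-52E was -0.36 with a larger SE of 0.14 (DESeq2 Wald test, adjusted p = 0.0128).

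In NRK-49F Nqo1 levels were 700.1, 732 and 689 CPM in untreated medium and 802, 852 and 851 CPM in cisplatin medium. All 3 libraries in cisplatin medium lay above all 3 in untreated medium, with means of 707 ± 22.4 and 835 ± 28.3 CPM (SD, n = 3 each). The log2 fold change was 0.24 (SE 0.04, edgeR adjusted p = 7.05e-07), and 0.44 with library size only. The contrast of the responses was -0.59, lower in NRK-52E (SE 0.08, edgeR adjusted p = 5.95e-09). With DESeq2 this contrast was also -0.59, with a larger SE of 0.14 (DESeq2 Wald test, adjusted p = 4.65e-05). Nqo1 was also higher in the NRK-49F groups than in the NRK-52E groups. The log2 difference was 1.77 between the control groups (SE 0.06, edgeR adjusted p = 5.32e-31) and 2.37 between the treated groups (SE 0.06, edgeR adjusted p = 1.57e-35). Its order from low to high was NRK-52E with cisplatin, NRK-52E with vehicle, NRK-49F in untreated medium and NRK-49F in cisplatin medium, with no overlap between neighbours.

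Gclc fell in both lines. In NRK-52E it was at 196, 194 and 187 CPM with vehicle and at 130, 140 and 141 CPM with cisplatin, with no overlap. Means were 192 ± 5.03 and 137 ± 6.19 CPM (SD, n = 3 each), and the log2 fold change was -0.51 (SE 0.05, edgeR adjusted p = 3.18e-12). In NRK-49F it was at 164, 187 and 177 CPM in untreated medium and at 135, 139 and 133 CPM in cisplatin medium. These groups did not overlap either, with means of 176 ± 11.3 and 136 ± 2.89 CPM (SD, n = 3 each) and a log2 fold change of -0.37 (SE 0.05, edgeR adjusted p = 2.06e-08). With library size only the NRK-49F value was -0.17 (edgeR adjusted p = 0.00163), so its size depended on the scaling and its direction did not.

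The Gclc responses of the lines were not shown to differ. The contrast was -0.12 (SE 0.07, edgeR adjusted p = 0.117), but it passed with library size only, where it was -0.29 (edgeR adjusted p = 0.000122). It also passed without replicate 2 of untreated medium (-0.20, edgeR adjusted p = 0.00809), without replicate 3 of untreated medium (-0.17, edgeR adjusted p = 0.0362) and without replicate 3 of cisplatin medium (-0.18, edgeR adjusted p = 0.0249). Between the lines, Gclc differed less than the other tested members with TMM scaling. NRK-49F in untreated medium was lower than NRK-52E with vehicle by 0.13 on the log2 scale (a log2 difference of -0.13, SE 0.05, edgeR adjusted p = 0.0102), although single libraries of the 2 groups overlapped. With library size only that difference was -0.62 (edgeR adjusted p = 6.86e-17). The treated groups overlapped and differed by -0.01 (SE 0.05, edgeR adjusted p = 0.836), or by -0.33 with library size only (edgeR adjusted p = 3.01e-08), a size close to that of Hmox1 under the same scaling.

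**Figure D2:**
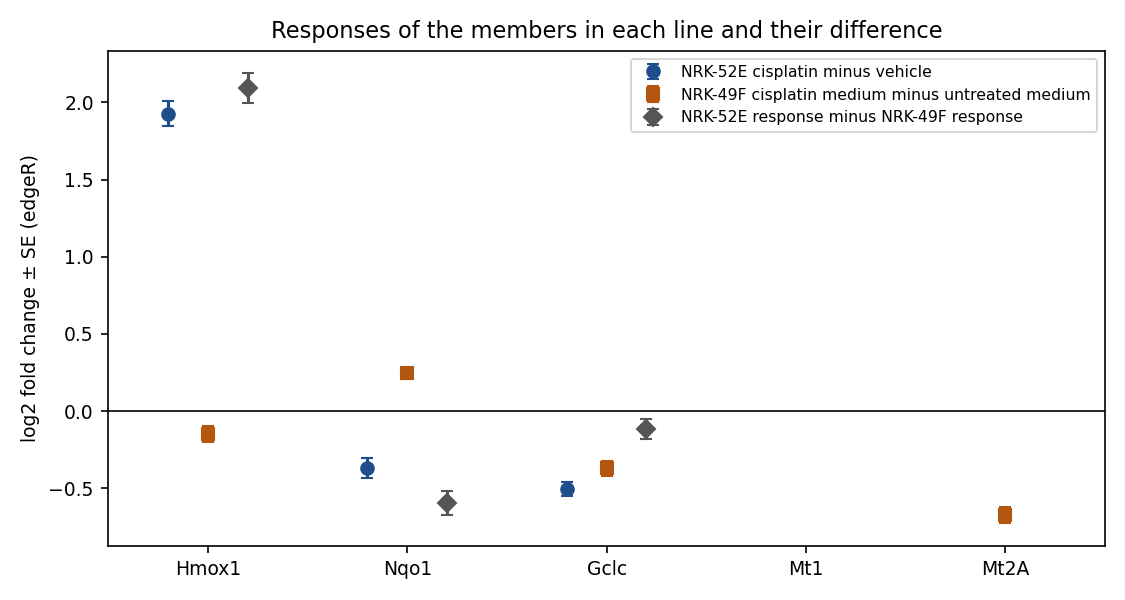
Log2 fold change with its standard error (edgeR, 3 libraries a group) for each gene in NRK-52E (circles), in NRK-49F (squares) and for the difference of the 2 responses (diamonds). Hmox1 stands at 1.93 in NRK-52E and -0.15 in NRK-49F, Nqo1 has opposite signs in the lines and Gclc is negative in both; no symbol is drawn for Mt1, or for Mt2A outside the NRK-49F comparison, where counts were too low for a fold change.

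Of the metallothionein genes, Mt2A was set apart between the NRK-49F and NRK-52E groups, which differed in medium as well as in line. Mt2A counts in NRK-52E were 5, 2 and 4 with vehicle and 1, 2 and 2 with cisplatin, against 1348, 1217 and 1163 in NRK-49F in untreated medium and 882, 926 and 984 in cisplatin medium. All NRK-52E libraries were thus at or close to the limit of detection, and all NRK-49F libraries were far above it. From counts pooled over each group and scaled by TMM, Mt2A was 499-fold higher in NRK-49F in untreated medium than in NRK-52E with vehicle, with an exact binomial counting interval (95%) of 279 to 1001. That interval covers neither the spread between libraries nor the choice of scaling. With library size only the means of these groups were 110 and 0.308 CPM, a smaller ratio. Mt2A passed the filter on low counts in the fit of all 12 libraries only through NRK-49F, where it is high, so the edgeR call of this difference is no separate support and only the pooled ratio is given. Between the treated groups the pooled ratio was 644 (counting interval 276 to 1985).

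Within NRK-49F, Mt2A fell in cisplatin medium. Levels were 137, 145 and 126 CPM in untreated medium and 88.1, 82.9 and 83.9 CPM in cisplatin medium. No library of one group reached the other, with means of 136 ± 9.57 and 85 ± 2.75 CPM (SD, n = 3 each). The log2 fold change was -0.67 a drop to 0.627 of the untreated level (SE 0.05, edgeR adjusted p = 1.67e-13), and -0.47 with library size only (edgeR adjusted p = 7.54e-10). Among all genes tested in NRK-49F, 16.3% changed by more in either direction. In NRK-52E Mt2A was below the filter on low counts. Its pooled counts were 11 with vehicle and 5 with cisplatin, a ratio of 0.485 with a counting interval of 0.132 to 1.51, so a change there was not detectable at this depth. For the same reason the contrast of its responses is uninformative (-0.31, SE 0.63, edgeR adjusted p = 0.704).

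Mt1 had 2 to 7 counts in every library and was tested in neither line. Its counts were 6, 5 and 3 in NRK-52E with vehicle, 2, 6 and 3 with cisplatin, 5, 7 and 6 in NRK-49F in untreated medium and 2, 2 and 6 in cisplatin medium. In both comparisons the groups overlapped. The pooled ratio of cisplatin to vehicle was 0.838 (counting interval 0.344 to 1.99; exact two-sided permutation p = 0.8), and that of cisplatin medium to untreated medium was 0.464 (0.191 to 1.06; exact two-sided permutation p = 0.2). Without replicate 3 in cisplatin medium, which held 6 of the 10 counts of its group, the latter ratio was 0.288. Each permutation p tests the difference of the group means in CPM, not the pooled ratio beside it. The smallest p that 3 libraries against 3 allow is 0.1. The 499-fold difference of Mt2A between the control groups had no counterpart in Mt1. The Mt1 pooled ratio of NRK-49F in untreated medium to NRK-52E with vehicle was 1.89 (counting interval 0.89 to 4.11, exact two-sided permutation p = 0.1). With library size only this ratio was 1.35 and the groups overlapped. The RefSeq gene table names 3 Mt1 pseudogenes (Mt1-ps), and how reads that match several copies were counted is not given in the sources used here. The Mt1 counts are therefore uncertain, and the part of such copies in them was not tested.

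In RefSeq (GRCr8), Mt1 and Mt2A are neighbours on chromosome 19 on the same strand, with 0 annotated genes between them, and Hmox1 and Nqo1 lie on the same chromosome. The 250 bases before the gene start were matched by symbol for 4 of the 5 genes, all but Hmox1. Those of the metallothionein pair are shown because the pair differed so much in level in NRK-49F. Capitals mark the metal response element core, searched on both strands as TGCACNC or TGCGCNC. The Mt1 window is chr19:10832976-10833225 and the Mt2A window chr19:10838709-10838958, both on the minus strand and written 5′ to 3′ toward the gene.
Mt1: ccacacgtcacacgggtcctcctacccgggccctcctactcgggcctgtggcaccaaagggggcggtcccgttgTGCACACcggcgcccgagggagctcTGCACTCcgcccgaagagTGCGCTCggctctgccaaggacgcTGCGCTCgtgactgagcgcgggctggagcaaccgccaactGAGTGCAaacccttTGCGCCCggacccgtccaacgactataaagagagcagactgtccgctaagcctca
Mt2A: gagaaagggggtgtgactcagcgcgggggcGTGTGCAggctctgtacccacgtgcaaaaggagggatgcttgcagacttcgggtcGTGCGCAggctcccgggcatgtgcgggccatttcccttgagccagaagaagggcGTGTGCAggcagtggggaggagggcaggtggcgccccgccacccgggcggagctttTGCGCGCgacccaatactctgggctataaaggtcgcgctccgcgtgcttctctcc

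The Mt1 window held 6 matches and the Mt2A window 4. In both, 1 match lay on the gene's strand from base -55 to base -49 before the start, and the other 3 in Mt2A were on the opposite strand. Of 33465 upstream windows of the same length in the RefSeq table, 20.6% held at least 1 match and 0.266% held 4 or more. The antioxidant response element core, searched on both strands as TGACNNNGC, had 1 match in each metallothionein window, overlapping no metal response element match, and 0 in those of Nqo1 and Gclc, where the metal response element core also had 0. That core was found in 10.1% of all windows. The Mt1 window, with more matches than that of Mt2A, belonged to the gene that was near the detection limit in both lines. The Mt1 counts are uncertain, as stated above, and a link between matches and level was not tested. Matches of letters are not binding sites, and elements outside these windows were not searched.

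**Figure D3:**
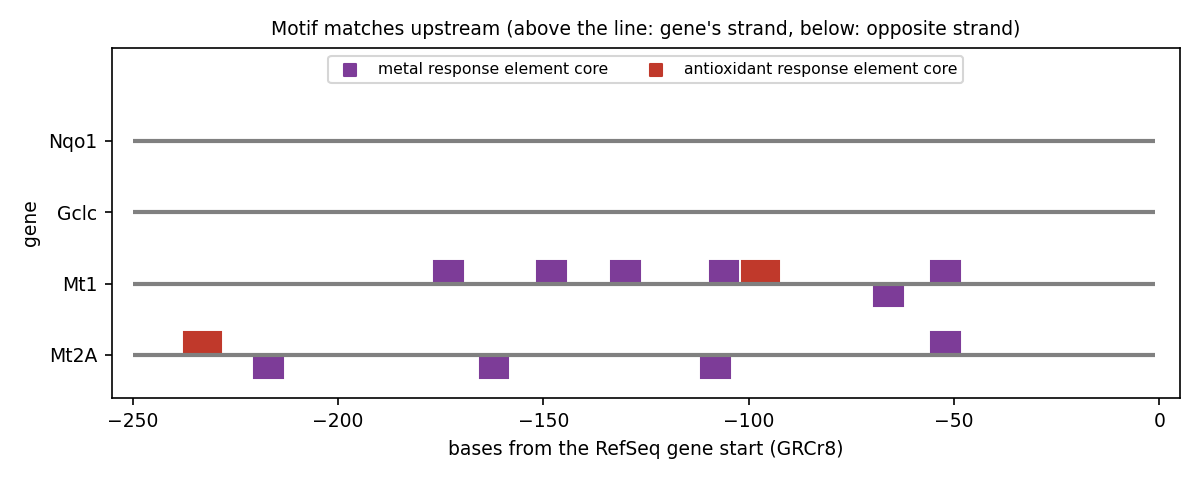
Positions of motif matches in the 250 bases before the RefSeq gene start (GRCr8) of 4 genes, in bases from the start, with matches on the gene's strand above each line and on the opposite strand below. The Mt1 window holds 6 metal response element cores and the Mt2A window 4, each has 1 antioxidant response element core, and Nqo1 and Gclc have none of either motif.

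Against the whole table, the number of members called is not unusual. In NRK-52E 3 of the 5 members passed the filter on low counts, and all 3 passed the test, 1 higher and 2 lower, where 76.2% of 12508 tested genes were called, 38.7% higher and 37.6% lower. In NRK-49F 4 passed the filter and the test, 1 higher and 3 lower, where 61.8% of 11525 tested genes were called, 30.8% higher and 31.0% lower. The median log2 fold change was -0.37 over the members tested in NRK-52E, beside 0.0078 over all genes tested. With 3 members this median is the value of Nqo1, while Hmox1 was at 1.93. In NRK-49F these medians were -0.26 and 0.017. Over so few members, chosen with earlier results known, neither median shows a shift of the members as a group. For the contrast of responses, Hmox1 (higher in NRK-52E) and Nqo1 (lower) passed and Gclc did not, beside 66.5% of 13127 genes, 33.9% higher and 32.6% lower. Between the lines, Hmox1 and Nqo1 were higher and Gclc lower in NRK-49F in the control groups, where 81.7% of all genes were called, 40.9% in each direction. In the treated groups Hmox1 and Nqo1 were higher and Gclc did not pass, where 82.7% of genes were called, 40.1% higher and 42.6% lower. Mt2A is left out of both, since it entered that fit only through the line where it is high. Hmox1 in NRK-52E and Mt2A in NRK-49F lay farthest from the bulk of genes, whereas Nqo1 in both lines was smaller in size than 55.5% or more of tested genes.

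**Figure D4:**
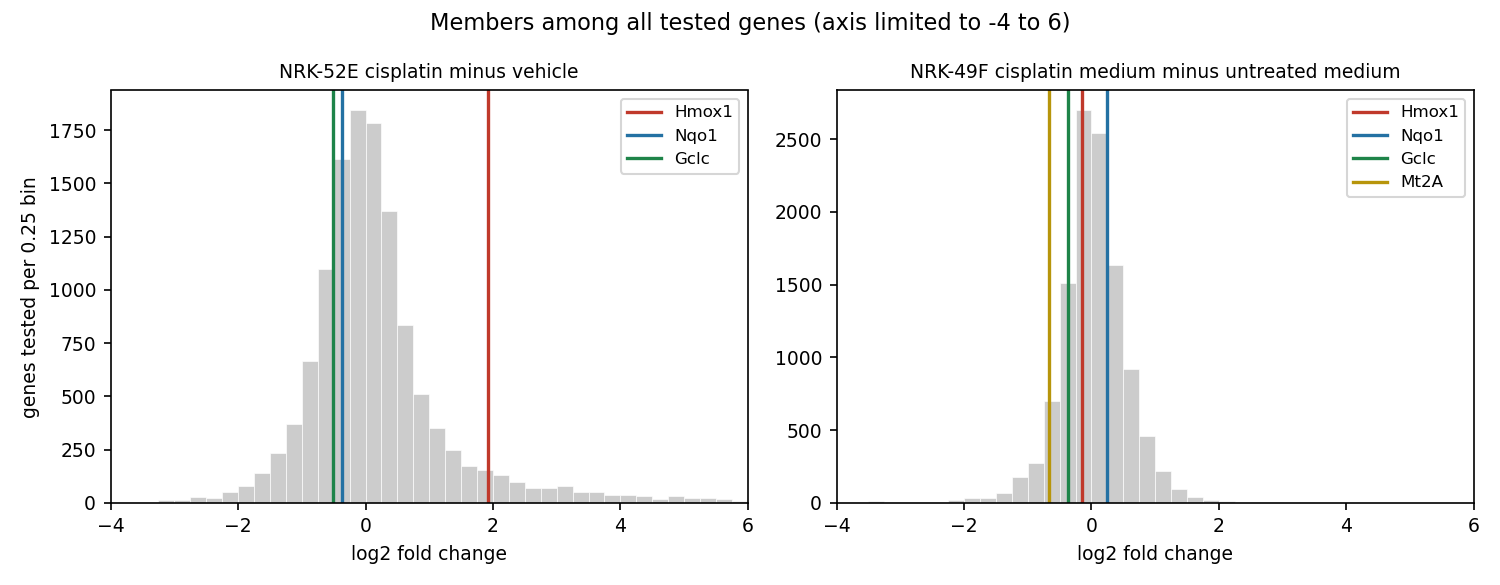
Number of tested genes by log2 fold change in bins of 0.25 (grey bars) for each line, with a coloured line for each member that was tested and the axis limited to -4 to 6. Hmox1, at 1.93, lies in the upper tail in NRK-52E, and Mt2A, at -0.67, toward the lower end in NRK-49F.

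The profiles of Hmox1, Nqo1 and Gclc over the 12 libraries differed from each other to unequal degrees. Likeness was measured as the root mean square difference of mean-centred log2 CPM, which is 0 for identical profiles. Hmox1 and Nqo1 were the closest pair, at 0.851, and 14.8% of the 13126 other genes compared were nearer to Hmox1 than Nqo1 was. Gclc was at 1.22 from Hmox1 and 1.1 from Nqo1, near the median distances of all genes from these members, 1.19 and 1.16. Mt2A was at 3.09 or more from each of the other 3. Within a distance of 0.25 there were 18 genes for Hmox1, 51 for Nqo1, 1193 for Gclc and 0 for Mt2A, whose nearest gene was at 0.279. These distances share the 12 libraries and are dominated by the difference between the lines. Mt2A entered the comparison only through NRK-49F and was near the detection limit in NRK-52E, so its distances are no separate result. The near genes are not named because the files do not pair their identifiers with names.

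Among the 4 members tested in NRK-49F, only Hmox1 changed sign with the scaling of the libraries. There, scaling by library size alone moved the median of all tested genes by 0.20 (log2), and the share of called genes that were higher went from 49.9% to 75.4%. With upper-quartile factors the median moved by 0.13 and the share was 66.9%. A change of scaling moves every gene by about the same amount, so relative to this median the members' values are the same by construction. Between the control groups of the lines the median moved by -0.49 with library size only and the share higher went from 50.0% to 31.1%, and between the treated groups the median moved by -0.31 and the share from 48.5% to 33.7%. For the contrast of responses the median moved by -0.17, and the share went from 51.0% to 40.9%.

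**Figure D5:**
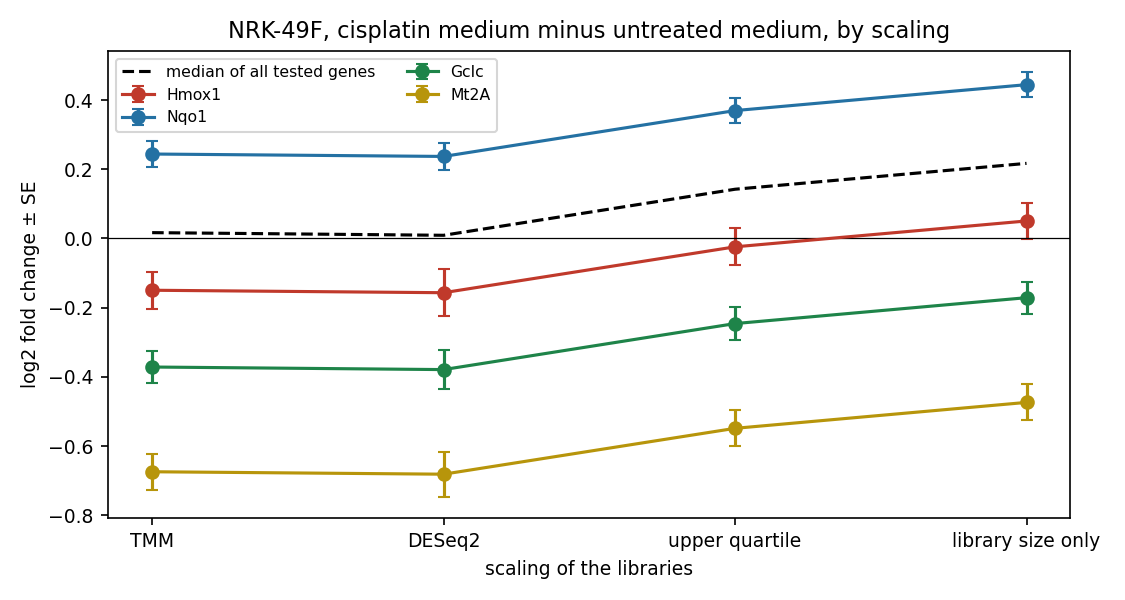
Log2 fold change with its standard error in NRK-49F (cisplatin medium minus untreated medium, 3 libraries each) under 4 scalings of the libraries, with the median of all tested genes as a dashed line. Nqo1 is positive and Gclc and Mt2A are negative under each scaling, and Hmox1 goes from -0.15 with TMM to 0.051 with library size only.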

How the data were processed

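Gene-level RNA-seq was analysed for 12 libraries in 4 groups, assigned by their titles. Per the labels' protocols, RNA was isolated with TRIzol and columns and libraries were stranded mRNA libraries. A single table of raw counts by Ensembl gene was deposited by the authors, without normalization. Per the submitters' processing notes, the tools were STAR 2.7.10a, featureCounts and Subread, whose roles and settings are not stated. What genome build, annotation, strand setting and handling of multiply matching reads were used is not given in the sources used here. Reads of overlapping, antisense or near-identical genes may therefore be shared or lost.

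The 5 genes and all lists were chosen with earlier results of these data known. All 5 are named. Other gene lists and cell type markers were to be used by symbol, but 0 of 21698 identifiers matched the RefSeq table (GRCr8), so they were not run.

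Tests used edgeR 4.0.16 in R 4.3.3 on the whole table: filterByExpr (minimum count 10, minimum total 15), TMM, glmQLFit and glmQLFTest, and Benjamini-Hochberg adjustment at 0.05. Each line was fitted apart, and contrasts across lines used 1 fit of all 12 libraries. Each standard error (SE) is |log2 fold change| over the square root of F. Pooled ratios have exact conditional binomial intervals (95%) for counting error only, and permutation p-values test the difference of group means in TMM-scaled CPM. Libraries within a group differed by more than sampling noise (chi-square 1.71 to 4.09 per degree of freedom), so each counted as 1 sample. Same-numbered libraries did not deviate together, so the numbers were not taken as pairs. Alternatives were DESeq2 1.42.0, other scalings and filters, a replicate block, a test against a 1.5-fold change and leaving out each library. The fitting code was tested on simulated data with known changes. Likeness used log2 CPM with a prior count of 2. Figures used matplotlib 3.10.9.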

Additional observations from a re-analysis of the deposited data

Results flagged for a closer look

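The direct test of the difference between the responses passed for 2 members. The log2 fold change of Hmox1 in NRK-52E exceeded that in NRK-49F by 2.09 (edgeR adjusted p = 5.71e-24), and that of Nqo1 differed by -0.59, lower in NRK-52E (edgeR adjusted p = 5.95e-09). Of all genes, 66.5% passed this contrast. Groups of 3 libraries are too small for a search for single deviating libraries.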

How the results depend on the processing

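Of 446 values under the alternatives, 414 were counted as unchanged. For a member's log2 value this meant the same direction and the same side of the threshold. For a pooled ratio it meant a place inside the counting interval, and for a number of genes called a change within 1.5-fold. The total also holds Mt2A in the fits of both lines together, which is no separate support. The rest concern mainly the test against a 1.5-fold change, the scaling and Gclc. Against a 1.5-fold change edgeR called 3883 in place of 9536 genes in NRK-52E, 1184 in place of 7123 in NRK-49F, 4512 in the contrast of responses in place of 8724, and 6709 and 6238 between the control and the treated groups of the lines in place of 10729 and 10862. Under that test these members no longer passed, with unchanged log2 values: Nqo1 (-0.37) and Gclc (-0.51) in NRK-52E, Hmox1 (-0.15), Nqo1 (0.24), Gclc (-0.37) and Mt2A (-0.67) in NRK-49F, Nqo1 in the contrast of responses (-0.59), Gclc between the control groups (-0.13) and Hmox1 between the treated groups (0.62). Hmox1 in NRK-52E and in the contrast of responses still passed.

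Hmox1 in NRK-49F turned to 0.051 with library size only and was -0.024 with upper-quartile factors (edgeR adjusted p = 0.705), and leaving out each library gave -0.19 to -0.12. The Gclc contrast of responses passed with library size only (-0.29), upper-quartile factors (-0.26) and no filter (-0.16), and leaving out each library gave -0.20 to -0.083. Gclc between the treated groups was -0.33 with library size only, 0.025 with no filter, and -0.044 to 0.031 with each library left out, where 7 of 12 omissions turned its sign. The cause of these shifts was not tested. The pooled ratios of Mt1, and of Mt2A in NRK-52E, stayed inside their counting intervals in alternatives chosen after seeing the data. These intervals come from the same few counts and are wide, so staying inside them says little about stability. The Mt1 ratio ranged from 0.587 to 1.06 in NRK-52E and from 0.288 to 0.562 in NRK-49F. Between the lines it ranged from 1.35 to 2.22 in the control groups and from 0.652 to 1.5 in the treated groups. The Mt2A ratio in NRK-52E ranged from 0.403 to 0.6.

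Labels share replicate numbers across groups. Same-numbered libraries had correlated deviations of only -0.051 to 0.021, and a fit with the replicate number as a block (replicate block) called 9382 (NRK-52E) and 7020 (NRK-49F) genes and changed no member's call. In that fit Hmox1 was 1.93 in NRK-52E. Members below 10 counts a library, Mt1 everywhere and Mt2A in NRK-52E, are limited by depth.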
